A study of Mus musculus with 48 samples.

Results

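The cytosolic ribosomal protein genes are the genes whose products, with ribosomal RNA, form the ribosomes that translate messages of the cytoplasm. A gene was taken as a member when its symbol had the form Rpl or Rps followed by a number, with an optional a, x, l, y or l1, or was Rplp0, Rplp1, Rplp2, Rpsa or Rpl7l1, and when it was typed as protein coding where a table gave the type. This rule found 82 of the 55439 genes in the deposited tables. Of these, 43 encode proteins of the large subunit, 30 encode proteins of the small subunit, 3 encode the stalk of the large subunit and 6 are paralogs of other members. The age and P21 tables held all 82, the NPC table held 81 and the CT and VPA table held 8. Rows of matching symbol that were not typed as protein coding were left out of the members, and the pseudogene Rps4l is described apart from them.

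RNA sequencing of mouse cortex gave values as FPKM, in which the fragments of a gene are divided by its length and by the library's mapped fragments. The age series compared Ctrl with mG-cKO cortex at P1 and P45 (3 libraries a group) and at P7 and P14 (2 libraries a group; the third labelled library of each genotype at those ages was not analysed here). At P21, 5 groups of 3 libraries were Ctrl, mG-cKD, mG-cKD with RTI, mG-cKO and mG-cKO with RTI. Other tables held 3 CT and 3 VPA cortex libraries at P1, and 3 libraries titled NPC whose labels also read cortex, Ctrl and P1. In the titles Ctrl is WT, mG-cKD is Het and mG-cKO is MT. What mG, RTI, VPA and NPC stand for is not written out in the labels, nor is the altered gene, the driver of its deletion or the strain, so the genotype could not be checked here. No label says that the libraries of a group are from different animals. The p-values describe the spread of these libraries, which may be technical.

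Each cytosolic ribosome carries 1 copy of nearly every member protein, and the stalk carries several copies of its small acidic members. The messages of these genes begin with a C followed by a run of pyrimidines, the terminal oligopyrimidine (TOP) tract, through which the mTOR pathway sets how much of the message is translated. Ribosomal protein messages are abundant in dividing and growing cells, and in brain they are known to be high in progenitors and young neurons. Mammalian genomes also hold many processed pseudogenes of these genes, so short reads of a member can match several places.

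The bases around the annotated start of 8 members show the region where the tract lies. They include the genes on which the results below turn and range from a long to a short run of C and T. Each line gives 15 bases before and 15 bases from the start on, read from the RefSeq promoter table of GRCm38.p6 in the direction of transcription, with the longest run of C and T in capitals.
Rps6, chr4:86857353-86857382, minus strand: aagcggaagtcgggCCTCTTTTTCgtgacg
Rplp2, chr7:141447636-141447665, plus strand: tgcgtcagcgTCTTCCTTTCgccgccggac
Rps10, chr17:27635230-27635259, minus strand: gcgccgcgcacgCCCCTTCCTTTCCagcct
Rpl22l1, chr3:28805493-28805522, plus strand: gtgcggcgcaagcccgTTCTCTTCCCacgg
Rps27l, chr9:66946071-66946100, plus strand: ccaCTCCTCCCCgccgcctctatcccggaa
Rplp0, chr5:115559452-115559481, plus strand: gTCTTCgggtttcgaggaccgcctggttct
Rps16, chr7:28350674-28350703, plus strand: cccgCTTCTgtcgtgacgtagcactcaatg
Rpl37a, chr1:72711245-72711274, plus strand: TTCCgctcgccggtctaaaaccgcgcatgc

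Of the 82 members, 62 had an entry in that table. A run of at least 8 C or T bases lay in the 30-base window of 27 of the 62 members (43.5%) and of 13.8% of 26963 other genes. Runs were counted anywhere in the window and are not in themselves TOP tracts. That of Rps27l began at base -12 from the annotated start, and that of Rpl22l1 at base 2 with a T. The core of the ETS family motif, CCGGAAG, was searched on both strands in 300 bases around the start and was present for 25 members (40.3%) and for 9.86% of the others. Its other strand begins with pyrimidines, so a match can share bases with a run. A TATA box core, TATAAA, searched likewise, was present for 7 members (11.3%) and 15.7% of the others. The runs at Rps16, Rpl37a and Rplp0 were short at the annotated start, which may differ from the start used in cortex. The members lay on 19 chromosomes, with 14 on chromosome 7, and their median merged exon length was 1775.5 bases against 3498 for all protein-coding genes.

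In 23 of the 44 libraries, low values fell on whole read steps and gave depths of 13.5 to 30.9 M reads. The other 21 libraries (all of P21, the third library of each group at P1 and P45, the third VPA library and NPC C3) did not, and their depth is unknown. The third P1 and P45 libraries stood apart for the members too: over the members the ratio of the third library to the mean of libraries 1 and 2 had a median of 1.65, 1.51, 2.38 and 2.82 in P1 Ctrl, P1 mG-cKO, P45 Ctrl and P45 mG-cKO. Libraries 1 and 2 at P45 were set apart by the small nuclear RNA Rn7sk, at 18351 to 21130 FPKM against 0.625 and 72.8 in the third. Results at P1 and P45 are therefore given over all libraries and over libraries 1 and 2 alone. The neuronal genes Snap25 and Slc17a7 were present in every cortex library of the age and P21 tables (Slc17a7 from 20.98 FPKM upwards), whereas the NPC libraries held Slc17a7 at 0.09 to 0.299 FPKM. The CT and VPA table listed none of the 7 neuron markers.

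Of the 82 members, 79 passed the filter of a mean of 0.5 FPKM in both cortex tables. The 3 below it were paralogs known from other tissues: Rpl3l, which replaces Rpl3 in striated muscle, and Rpl10l and Rpl39l, which are known from testis. Rpl10l was at 0 in every library of the age and P21 tables. The range was wide among the rest. Over the 16 age-series libraries with whole read steps, the highest members were Rplp1 at a mean of 568 FPKM, Rps15 at 313, Rplp0 at 262, Rpl41 at 256 and Rpl36 at 249. The lowest that passed the filter were Rpl24 at 1.36, Rps10 at 1.42, Rpl13a at 5.95, Rpl22l1 at 8.01 and Rpl21 at 10.7. Over the 15 P21 libraries the highest were Rpl41 at 421, Rps15 at 408, Rplp1 at 390, Rps2 at 314 and Rpl13a at 312, and the lowest were Rps27l, Rpl7l1, Rps15a, Rps20 and Rpl22l1, from 10.7 to 39.0. The spread of each of these genes over libraries covers its neighbours in the order. Among the 79 members Rpl13a stood at rank 77 in the age series and 5 at P21, Rpl24 at 79 and 36, and Rps10 at 78 and 50.

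Those 3 genes are the members that share the most exon sequence with another annotated gene on the same strand. Rpl24, a large-subunit protein at the subunit interface, shares 47.0% of its exon bases with Gm28037, Rpl13a shares 35.4% with Gm45713, Mir5121 and Snord33, and Rps10, a small-subunit protein near the mRNA entry, shares 20.6% with the readthrough gene RPS10-NUDT3. The next member shared 14.5%, and 55 of 82 shared none. Counted on either strand, Rpl35 shared 66.2% and Rpl23a 62.3%, more than Rpl24 (47.0%), Rpl13a (35.4%) and Rps10 (28.7%). For Rpl35 the log2 ratio of library 3 to libraries 1 and 2 was 1.22 in P1 Ctrl and 1.37 in P45 Ctrl. In P1 Ctrl, Rps10 was at 1.49 and 1.47 FPKM in libraries 1 and 2 and 166.6 in library 3. Rpl24 was at 2.49 and 2.09 against 176.4, and Rpl13a at 9.13 and 7.77 against 371.8. The third library was 43.99 to 165 times higher for these genes in the P1 groups and 47.9 to 148 times higher in the P45 groups, and never overlapped the first 2. The median over the other 76 members was 1.61 and 1.48 in the P1 groups and 2.33 and 2.81 in the P45 groups, with maxima of 7.38 and 7.74 for Rps24 and of 21.5 and 30.6 for Rpl23a. Whether the libraries were counted differently was not tested, and the counts and medians below include these 3 genes.

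**Figure D1:**
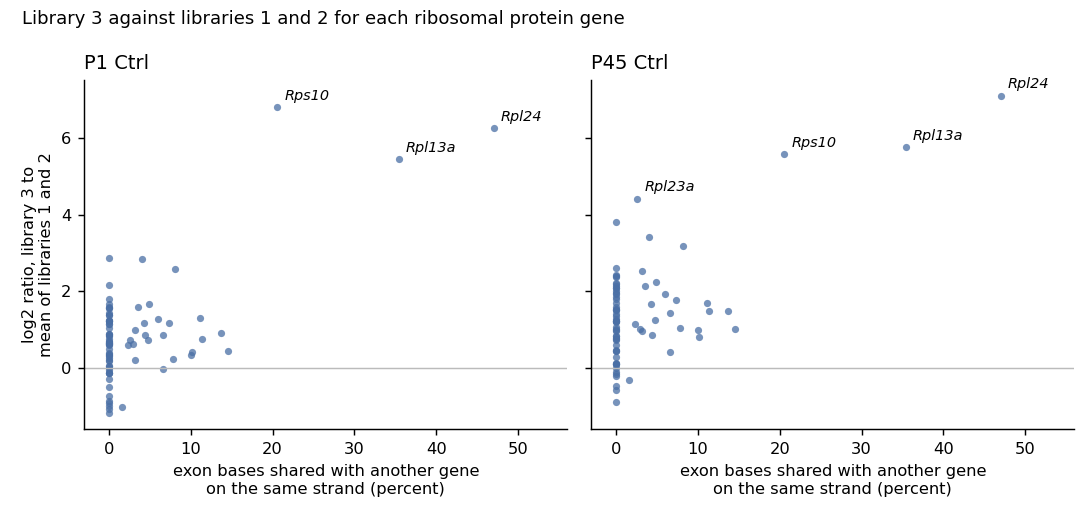
Each point is 1 of the 79 members tested: the x axis gives the percent of its exon bases shared with another gene on the same strand and the y axis the log2 ratio of library 3 to the mean of libraries 1 and 2, in P1 Ctrl and P45 Ctrl. Rps10, Rpl24 and Rpl13a lie above the other members in both panels, and far above them in P1 Ctrl. Rpl23a is the next highest at P45.

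Ribosomal protein messages were a large part of newborn cortex and a smaller part of older cortex. In Ctrl the members held 4.28% ± 0.394 (SD, n = 3) of all FPKM at P1, 3.39% ± 0.0979 (n = 2) at P7, 2.27% ± 0.0462 (n = 2) at P14 and 1.53% ± 0.468 (n = 3) at P45. In mG-cKO the shares were 4.55% ± 0.389, 3.71% ± 0.00694, 2.68% ± 0.0112 and 2.35% ± 0.827 with the same n. The P21 means lay above those at P14, at 2.62% in Ctrl and 3.24% in mG-cKO, in libraries normalized separately and without whole read steps. At P45 the high Rn7sk of libraries 1 and 2 is part of their total FPKM. In libraries 1 and 2 at P45 the shares were 1.29% and 1.23% in Ctrl and 1.90% and 1.85% in mG-cKO, and in library 3 they were 2.06% and 3.30%. At P45 every mG-cKO library was thus above the Ctrl library of its own number, while the third Ctrl library was above the first 2 mG-cKO libraries. In bulk tissue fewer cells of a type and less RNA of a gene per cell cannot be told apart.

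**Figure D2:**
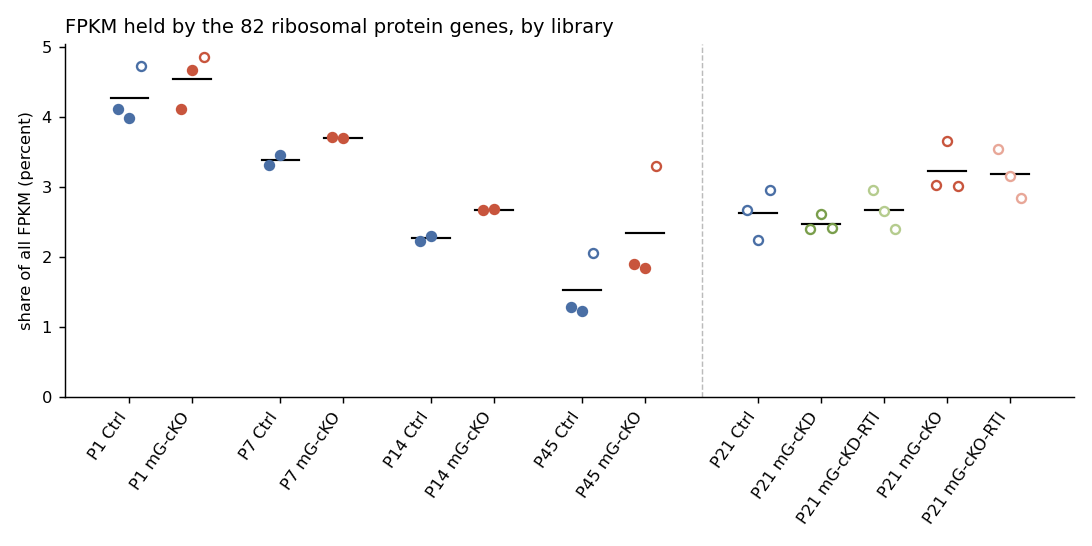
Each point is 1 cortex library and gives the share of its FPKM held by the members, in percent; filled points have whole read steps, open points do not, and the black bar is the group mean. Within the age series shares fall from P1 to P45 in both genotypes. The P21 means of Ctrl and mG-cKO lie above their P14 means, and mG-cKO means lie above the Ctrl means at every age.

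Across age in Ctrl, the comparison asks how these genes change as cortex matures from birth. All 3 comparisons use the same P1 libraries, so they share controls. At P45 against P1, 53 of 79 members fell and none rose (background 19.4% of 19733 genes called lower and 17.2% higher; limma on log2(FPKM + 1), Benjamini-Hochberg adjusted p under 0.05). The median difference was -1.52 on the log2 scale, a fold of 0.350, against 0.04 over all genes, and all 79 differences were below 0, from -4.03 for Rpl23a to -0.36 for Rps10, whose value was 0.03 over libraries 1 and 2 alone. At P14 against P1, 25 of 79 fell and none rose (background 14.3% and 11.1%), with a median of -1.15 against -0.09. At P7 against P1 no member passed limma's threshold (background 3.39% lower and 2.86% higher), 5 had an unadjusted p under 0.05, and the median was -0.49 against -0.07. Called in either direction were 36.6% of all genes at P45 and 6.24% at P7. Older libraries lay below all P1 libraries for 53 members at P7 (background 28.3%), 68 at P14 (background 35.8%) and 51 at P45 (background 20.9%). The P14 and P45 counts of members called are above the background shares. The P14 count was 10 without P14 Ctrl library 1 (background 7.92% lower), 9 without P14 Ctrl library 2 (7.84%) and 15 without P1 Ctrl library 3 (11.5%).

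The stalk gene Rplp0, whose protein anchors the acidic stalk that recruits elongation factors, had the smallest adjusted p. In Ctrl it was at 457.2, 433.0 and 458.7 FPKM at P1, at 323.6 and 360.9 at P7, at 155.3 and 155.8 at P14 and at 66.8, 60.1 and 76.9 at P45. Each age lay below the one before it with no overlap. The log2 difference from P1 was -1.52 ± 0.16 (SE; adjusted p = 8.9e-06) at P14 and -2.72 ± 0.15 (adjusted p = 5.7e-09) at P45, and at P7 it was -0.39 ± 0.16 (adjusted p = 0.212). Its partner Rplp1 took another course. It was at 641.9, 639.8 and 352.2 FPKM at P1, 718.7 and 725.1 at P7, 580.7 and 573.7 at P14 and 264.8, 259.1 and 226.0 at P45, so that library 3 at P1 was well below the other two. Rplp1 fell at P45 by 1.07 on the log2 scale (SE 0.24, adjusted p = 0.0029), with differences of 0.46 (adjusted p = 0.443) at P7 and 0.14 (adjusted p = 0.841) at P14. Over libraries 1 and 2 alone its P14 difference was -0.15 (adjusted p = 0.029). Rplp2, the other acidic stalk protein, was at 74.9, 67.7 and 69.2 FPKM at P1 and 24.3, 23.3 and 31.55 at P45. It fell at P14 (-0.81 ± 0.19, adjusted p = 0.0055, or 0.0574 without the second P14 Ctrl library) and at P45 (-1.40 ± 0.17, adjusted p = 1.5e-05).

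Of 30 small-subunit members, 12 fell at P14 and 21 at P45, where 2817 and 3833 of all 19733 genes were called lower. Their median log2 differences were -1.16 and -1.57. Rps16, a protein near the decoding site, was at 135.1, 128.2 and 119.4 FPKM in P1 Ctrl and at 39.1, 39.2 and 41.5 in P45 Ctrl. The P45 libraries lay closely together and far below P1, with a log2 difference of -1.65 ± 0.12 (adjusted p = 7.0e-08), and the P14 difference was -0.72 ± 0.13 (adjusted p = 7.8e-04). Rps4x, encoded on the X chromosome, fell by 1.16 at P14 and 1.64 at P45 on the log2 scale (means of 203.7, 90.6 and 64.9 FPKM; adjusted p = 3.8e-05 and 2.4e-07). Rps15a fell by 1.12 and 1.44 (39.1, 17.4 and 13.7 FPKM; adjusted p = 2.3e-05 and 3.4e-07). Rps6, the substrate of S6 kinase, was split by library kind, with 176.0, 170.2 and 293.8 FPKM at P1 and 61.8, 55.3 and 170.2 at P45. It fell at P45 (-1.29 ± 0.45, adjusted p = 0.0364), which was lost on leaving out any 1 of the first or second P1 or P45 libraries or the third P1 library (adjusted p of 0.0514 to 0.151), and its P14 difference was -1.16 (adjusted p = 0.113). Rps27a, made as a fusion with ubiquitin, fell at P45 (-1.78 ± 0.54, adjusted p = 0.0188), a call lost without P45 Ctrl library 1 (0.0728) or P1 Ctrl library 3 (0.0849), with a P14 difference of -0.80 (adjusted p = 0.408).

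Of 43 large-subunit members, 11 fell at P14 and 27 at P45, with medians of -1.18 and -1.52. Of all 19733 genes, 2817 and 3833 were called lower at these ages. Rpl37a, a small zinc-binding protein, was at 120.5, 102.3 and 100.4 FPKM at P1 and 44.99, 40.1 and 45.3 at P45, with no overlap. It fell by 0.82 (SE 0.15, adjusted p = 7.5e-04) at P14 and by 1.29 (SE 0.13, adjusted p = 2.7e-06) at P45 on the log2 scale. Rpl3, a core protein next to the peptidyl transferase centre, did not pass (means of 97.0 against 164.0 FPKM, -0.81 ± 0.32, adjusted p = 0.0617), but passed without P45 Ctrl library 3 (-1.14, adjusted p = 0.0066); its P14 difference was -0.77 (adjusted p = 0.145). At P7 the smallest p among members belonged to the small-subunit genes Rps28 (33.2 against 63.2 FPKM, -0.88 ± 0.26, adjusted p = 0.0676) and Rps15a (-0.42 ± 0.13, adjusted p = 0.0883) and to Rpl7, a large-subunit gene (-0.63 ± 0.25, adjusted p = 0.179). Without P1 Ctrl library 3, Rps15a passed at P7 (-0.52, adjusted p = 0.0446). Rps27a had a P7 difference of -0.87, the lowest of the 9 members named throughout, and did not pass.

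Among the 3 paralogs that passed the filter the median difference was 0.00 at P7, -0.32 at P14 and -0.58 at P45. At P45, 2 of 3 fell, beside 3833 of all 19733 genes. Rps27l, a paralog of Rps27 known as a p53 target, fell at P45 (5.16 against 13.6 FPKM, -1.19 ± 0.25, adjusted p = 0.00175), and Rpl7l1, a paralog with a known part in ribosome assembly, fell too (9.01 against 13.8 FPKM, -0.58 ± 0.13, adjusted p = 0.0022). Rpl22l1, the paralog of Rpl22, did not pass at P45 (5.004 against 7.35 FPKM, -0.48 ± 0.33, adjusted p = 0.262). At P14 the differences were -0.35 (adjusted p = 0.437; 0.0422 without P1 Ctrl library 3), -0.32 (adjusted p = 0.12) and 0.31 (adjusted p = 0.657) in that order of genes.

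The median decline from P1 to P45 was seen in both kinds of library and differed in size. Single members differed in direction too: in Ctrl, Rps10 was at 0.03 over libraries 1 and 2 and -1.16 in the third, and Rpl22l1 at -0.91 and 0.37. Over libraries 1 and 2 alone the median log2 difference from P1 in Ctrl was -0.25 at P7, -0.88 at P14 and -1.72 at P45, a level 3.28 times lower, and in the third libraries the P45 value was -1.15, a level 2.21 times lower. In the set of libraries 1 and 2, 48 members fell and 2 rose at P7 (background 22.5% lower and 16.5% higher). In it 71 fell at P14 (33.4%) and 78 at P45 (36.1%). Libraries 1 and 2 of P45 Ctrl also differed in kind from those of P1 Ctrl. They held 19088 and 19137 genes at 1 FPKM or more, against 14435 and 14501, beside their high Rn7sk. The part of this difference in the P45 step was not tested. The means of 66 of the 79 members stepped down from P1 to P7, P14 and P45 in Ctrl, and those of 63 did so in mG-cKO. The share of all genes that stepped down in this way was not computed, so these counts are descriptions only. In mG-cKO the median was -0.25, -0.81 and -1.24, or 2.36 times lower at P45, and -0.47 in the third libraries, or 1.39 times lower.

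**Figure D3:**
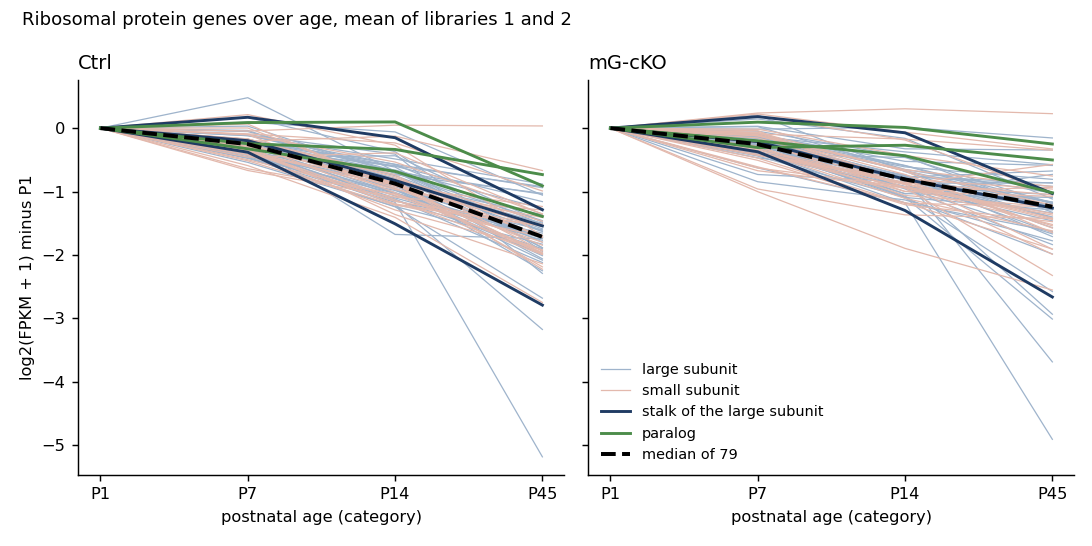
For Ctrl and mG-cKO, each line is a member and gives its log2(FPKM + 1) minus that at P1, as the mean of libraries 1 and 2, at P1, P7, P14 and P45 (categories, not to scale); colours give the role and the dashed black line the median of the 79. The median falls to -1.72 in Ctrl and to -1.24 in mG-cKO at P45.

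Genes that act beside the ribosome moved with age as follows. Of 5 ribosomal proteins whose symbols lie outside the rule, Fau (108 against 240 FPKM, -1.27, adjusted p = 0.0119) and Rack1 (29.3 against 106, -1.92, adjusted p = 0.0206) fell at P45. Of 15 other genes with TOP messages, most of them for translation factors, 2 fell at P7, 9 at P14 and 11 at P45 (background 3.39%, 14.3% and 19.4% lower), among them Hnrnpa1, which encodes an RNA-binding protein of splicing (-2.397, adjusted p = 9.0e-08) and the elongation factor Eef1b2 (-1.95, adjusted p = 6.8e-06). Of 25 ribosome biogenesis genes, 1 fell at P7, 9 at P14 and 13 at P45, led by the RNA helicase Ddx21 (5.41 against 15.8 FPKM, -1.38, adjusted p = 1.0e-06) and Nop58, a core protein of box C/D particles (-0.79, adjusted p = 1.0e-04). Of the 78 mitochondrial ribosomal protein genes 5 rose and none fell at P14 (background 11.1% and 14.3%), and 1 rose and 10 fell at P45 (17.2% and 19.4%), with a median of -0.22. Beside the age comparison, 6 of 7 oligodendrocyte and 5 of 6 microglia markers rose at both P14 and P45, and 3 of 5 neural progenitor markers fell. Of all genes, 11.1% rose and 14.3% fell at P14, and 17.2% rose and 19.4% fell at P45. Markers of neurons, astrocytes and endothelial cells are not reported here for age. The part of any cell type in the decline was not tested.

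At P1, P7 and P14 most members had somewhat higher means in mG-cKO than in Ctrl, and no member passed limma's threshold (background 0.127% of genes called higher and 0.0152% lower at P1, 0.157% and 0.00507% at P7, 0.269% and 0.076% at P14), and 0, 0 and 1 had an unadjusted p under 0.05. The median log2 difference was 0.09 at P1, 0.13 at P7 and 0.19 at P14, against 0.00, -0.00 and -0.01 over all genes. The P1 median lay between -0.09 (without mG-cKO library 3) and 0.32 (without Ctrl library 3) when 1 library was left out, and was 0.10 over libraries 1 and 2. Groups did not overlap, with mG-cKO higher, for 51 members at P7 (background 20%) and 68 at P14 (background 23.5%), where each group has 2 libraries. With mG-cKO lower they did not overlap for 4 at P7 (22.4%) and 1 at P14 (28.7%), and at P1, with 3 libraries a group, for 0 in either direction (2.74% and 2.25%). Fitted on the compared groups alone, 21 members passed at P14 (background 2.24%).

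The smallest p among members at all 3 ages was that of Rpl37a. It was at 126.6, 139.3 and 117.8 FPKM in P1 mG-cKO, overlapping Ctrl (0.25 ± 0.13, adjusted p = 1). At P7 it was at 91.9 and 97.6 FPKM in Ctrl and 121.8 and 118.8 in mG-cKO (0.34 ± 0.16), and at P14 at 60.2 and 60.35 against 74.5 and 80.35 (0.36 ± 0.16, unadjusted p = 0.044), with adjusted p = 1 at both. The groups did not overlap at P7 and P14. The next by p were Rps27 (0.88) and Rps27a (0.67) at P1, Rpl37 (0.38) and Rps28 (0.46) at P7, and Rps28 (0.51) and Rplp0 (0.28) at P14, all with adjusted p = 1 by limma. Over the 9 members named throughout (the 3 stalk genes, Rps6, Rpl3, Rps27a, Rpl22l1, Rps27l and Rpl7l1) the differences ran from 0.01 (Rplp0) to 0.67 (Rps27a) at P1, from -0.05 (Rpl7l1) to 0.64 (Rps27a) at P7 and from -0.32 (Rps27a) to 0.37 (Rps27l) at P14.

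At P45 nearly all members had higher means in mG-cKO than in Ctrl, with few of them past the threshold. Of 79 members 2 rose and none fell (background 0.694% higher and 0.461% lower), and 18 reached an unadjusted p below 0.05. The median log2 difference was 0.57, a fold of 1.49, against 0.01 over all genes, and 77 of 79 differences were above 0 against 52.7% of all genes. The 2 below 0 were Rpl21 (-1.13) and Rpl30 (-0.28), and the highest was Rps27 (1.26). Small-subunit members had a median of 0.65, large-subunit members 0.53, the stalk 0.45 and paralogs 0.59. Groups did not overlap, with mG-cKO higher, for 16 members (background 4.69%), and for none with it lower (2.63%).

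Rpl37a rose at P45. Ctrl libraries were at 44.99, 40.1 and 45.3 FPKM and mG-cKO libraries at 82.2, 83.3 and 112.5. The groups were far apart, and the third mG-cKO library was the highest. The means were 43.5 and 92.7, the fold was 2.09 and the log2 difference 1.06 ± 0.13 (limma adjusted p = 3.9e-04).

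Rps16 also rose at P45. Ctrl libraries were at 39.1, 39.2 and 41.5 FPKM and mG-cKO libraries at 74.1, 70.9 and 71.7. For this gene the third libraries were like the other two in both genotypes. The means were 39.9 and 72.2, the fold 1.79 and the log2 difference 0.84 ± 0.12 (limma adjusted p = 0.0011). Among the members that did not pass were Rps15a (0.48 ± 0.12, adjusted p = 0.0895) and Rpl37 (0.75 ± 0.19, adjusted p = 0.105).

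**Figure D4:**
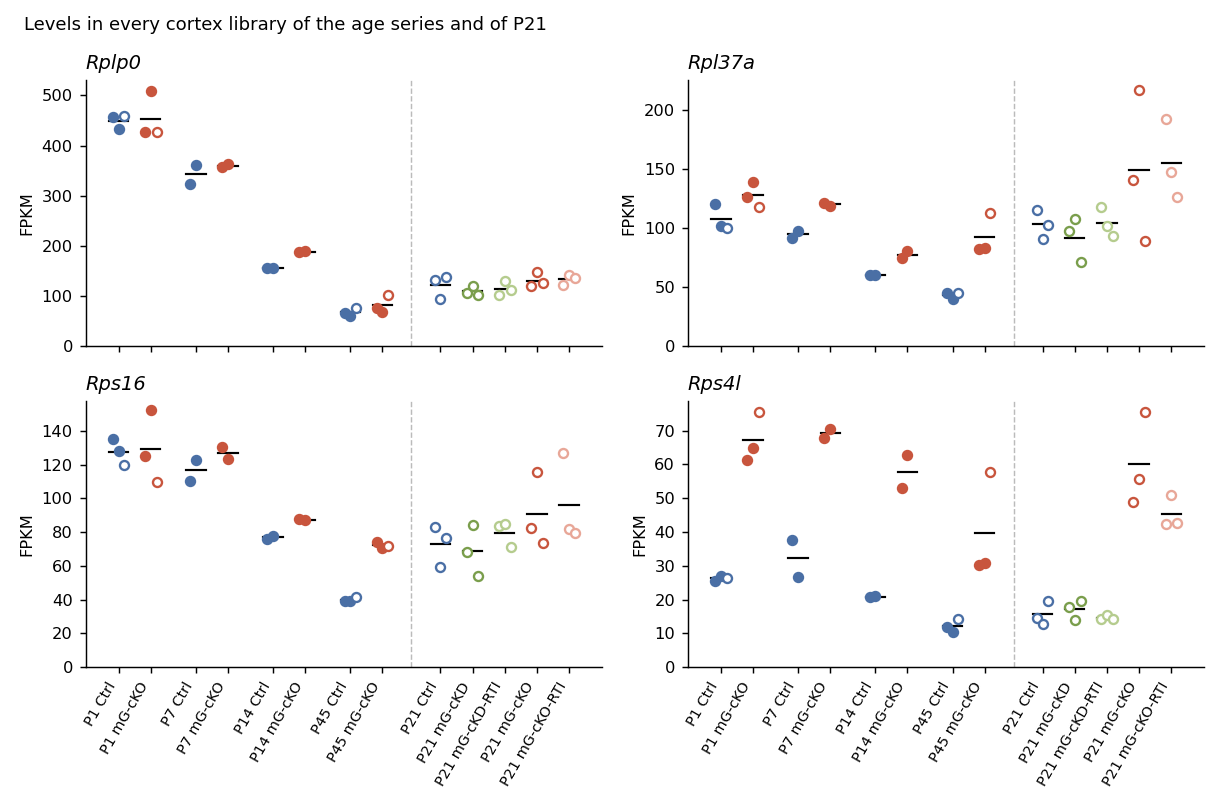
FPKM of Rplp0, Rpl37a, Rps16 and the pseudogene Rps4l in each cortex library of the age and P21 tables, by group. Rplp0 falls with age in both genotypes, Rpl37a and Rps16 are higher in mG-cKO at P45, and mG-cKO libraries of Rps4l lie above Ctrl at each age.

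None of the stalk genes passed at P45. Rplp0 was at 66.8, 60.1 and 76.9 FPKM in Ctrl and 76.25, 69.2 and 102.0 in mG-cKO (0.26 ± 0.15, adjusted p = 1), which overlap. Rplp1 was at 330.9, 309.7 and 383.2 in mG-cKO (0.45, adjusted p = 1), all above its Ctrl libraries, and Rplp2 was at 30.7, 31.4 and 51.7 against 24.3, 23.3 and 31.55 (0.48, adjusted p = 0.432), which overlap. Among the paralogs, Rpl22l1 was at 4.76, 3.397 and 6.86 FPKM in Ctrl and 7.01, 6.998 and 21.05 in mG-cKO (0.94 ± 0.33, adjusted p = 0.429), with no overlap. The differences of Rps27l (0.59), Rpl7l1 (0.22), Rps27a (0.70), Rps6 (0.32) and Rpl3 (0.18) did not pass either.

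How many members passed at P45 turned on how the libraries were paired and which were used. A block of replicate number within each age pairs every Ctrl library with the mG-cKO library of its number, a pairing the labels do not state. With it 67 members passed higher and 1 lower (background 8.37% and 5.51%). Over libraries 1 and 2 alone at P1 and P45, 61 passed higher (background 6.42%) with a median of 0.50. The third libraries, 1 of each genotype, differed by a median of 0.69. Fitted on the 2 groups alone, no member passed and no gene of the table did (0%). Leaving out 1 library gave 2 or 3 members past the threshold, with a median of 0.10 without mG-cKO library 3, 0.34 without Ctrl library 2 and 1.01 without Ctrl library 3, each of which leaves unequal numbers of the 2 kinds. The members higher in mG-cKO in libraries 1 and 2 without overlap, with library 3 in the same direction, were 72 of 79 (background 19.5%), with 1 lower (15.6%); at P1 they were 27 (12.8%) and 0 (12.2%). Rpl37a and Rps16 passed with the block (adjusted p = 9.1e-05 and 1.2e-04) and over libraries 1 and 2 (3.8e-05 and 5.7e-05), and not on the 2 groups alone (0.573 and 0.509).

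The mG-cKO difference at P45 exceeded that at P1 by a median of 0.47 over the members, against 0.01 over all genes, and 77 of 79 were above 0. In the test of this difference itself, 1 member passed (background 0.172% higher, 0.188% lower): Rps16, whose difference was 0.01 ± 0.12 at P1 and 0.84 ± 0.12 at P45, a change of 0.83 ± 0.16 (limma adjusted p = 0.0483). In P1 mG-cKO it was at 125.3, 152.2 and 109.8 FPKM, on both sides of Ctrl. Rpl37a had a change of 0.82 ± 0.19 (adjusted p = 0.126). The 9 members named throughout ran from 0.03 (Rps27a) to 0.85 (Rpl22l1), none past the threshold. With the replicate block 39 members passed (background 2.76%), and over libraries 1 and 2 alone 31 (background 2.06%). Leaving out any 1 of 11 of the 12 libraries left no member past the threshold, with adjusted p for Rps16 of 0.0564 to 0.173 there, and 1 passed without P1 mG-cKO library 2. Without P45 mG-cKO library 3 the median was -0.02.

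At P21 most members also had higher means in mG-cKO, and no member passed. In mG-cKO against Ctrl 0 of 79 passed limma's threshold (background 1.35% higher, 0.84% lower and 2.19% in either direction), while 5 had an unadjusted p under 0.05. The median was 0.23, a fold of 1.17, against 0.07 over all genes; 76 of 79 were above 0, against 63.1% of all genes. Groups did not overlap for 4 members (background 9.81%), with mG-cKO higher. The shares of all FPKM were 2.67%, 2.25% and 2.96% in Ctrl, 3.04%, 3.66% and 3.02% in mG-cKO, and 2.41%, 2.61% and 2.42% in mG-cKD. Every mG-cKO library held a higher share than every Ctrl and mG-cKD library.

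Rps19, a small-subunit protein whose gene is mutated in human Diamond-Blackfan anaemia, had the smallest p at P21. It was at 89.2, 64.5 and 88.3 FPKM in Ctrl and 114.5, 186.8 and 102.7 in mG-cKO. The groups did not overlap, and mG-cKO library 2 was far above the others (0.70 ± 0.24, adjusted p = 0.240). Rps27 came next (0.81 ± 0.30, adjusted p = 0.280). Rpl37a was at 115.7, 90.9 and 103.1 against 141.2, 217.1 and 89.4 FPKM (0.44, adjusted p = 0.668) and Rps16 at 83.1, 59.4 and 76.4 against 82.5, 115.5 and 73.7 (0.30, adjusted p = 0.781). For both the groups overlapped, and neither passed at P21. The stalk genes differed by 0.11, 0.15 and 0.09, in the order Rplp0, Rplp1 and Rplp2, and Rpl22l1 by 0.16; the 9 members named throughout lay between -0.18 (Rps27a) and 0.17 (Rps6).

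Some values at P21 rested on single libraries. Without Ctrl library 2 the median was 0.10 and without mG-cKO library 2 it was 0.11. Without the untreated libraries numbered 3, which stood apart (Rpl22l1 at 7.57 to 10.2 FPKM in them and 31.8 to 54.1 in the other untreated libraries), it was 0.39, with no member past the threshold. Scaling libraries by the median of ratios gave 0.15, and without Ctrl library 3 alone Rps27 passed (1.201, adjusted p = 0.0248).

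In mG-cKD, titled as heterozygous, most members had means slightly below Ctrl. Against Ctrl no member passed (background 0% in either direction), 1 had an unadjusted p under 0.05, and the median was -0.11 against 0.01 over all genes, or 0.01 without the untreated libraries numbered 3. Rpl22, a large-subunit protein that also binds viral RNA, had the smallest p, at 33.0, 31.0 and 24.3 FPKM in mG-cKD and 36.9, 39.9 and 41.2 in Ctrl (-0.42 ± 0.16, unadjusted p = 0.020, adjusted p = 1). The groups did not overlap for this 1 member with mG-cKD lower (background 2.08%) and for 0 with it higher (background 2.56%). The next was Rps27a (-0.83), and of the 9 members named throughout Rpl3 was highest (-0.01).

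In mG-cKO against mG-cKD, which shares the mG-cKO libraries with the comparison above, all 79 differences were above 0. The median was 0.37, a fold of 1.29, against 0.04 over all genes, and 60.3% of all genes were above 0. No member passed (background 1.06% higher and 0.469% lower), 14 had an unadjusted p under 0.05, and groups did not overlap for 22 members with mG-cKO higher (background 9.68%). Among the members with small p were Rps27 (198 against 101 FPKM, 0.95 ± 0.30, adjusted p = 0.233) and Rps19 (0.75 ± 0.24, adjusted p = 0.268). Of the 9 members named throughout the lowest was Rpl7l1 (0.05) and the highest Rps27a (0.66), neither past the threshold. With the replicate block 1 member passed, higher in mG-cKO (background 1.1%). Without mG-cKO library 2 the median was 0.21.

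Treatment with RTI gave no difference past the test in these genes in either genotype. In mG-cKO no member passed between treated and untreated (background 0% higher and 0.00609% lower), none had an unadjusted p under 0.05, and the median was 0.03, from -0.13 to 0.14 when 1 library was left out. In mG-cKD no member passed (background 0%), 1 had an unadjusted p under 0.05, and the median was 0.09. The difference of the 2 effects had a median of -0.10 with no member past the threshold (background 0%) and none with an unadjusted p under 0.05. Shares of all FPKM under RTI were 3.54%, 3.16% and 2.85% in mG-cKO and 2.96%, 2.67% and 2.397% in mG-cKD. The untreated libraries numbered 3, which stood apart, enter these comparisons. Their low values fell on whole read steps in 18.7% (mG-cKD) and 19.2% (mG-cKO) of cases, against 14.4% to 15.6% in the RTI libraries. The RTI comparisons therefore partly mix treatment with library kind.

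Rps27a had the smallest p under RTI in mG-cKO, at 143.0, 121.0 and 114.8 FPKM with RTI and 113.8, 80.3 and 24.8 without (1.03 ± 0.52, adjusted p = 0.962), where untreated libraries ranged widely and the groups did not overlap. Rpl30 (0.54) and Rpl39 (0.35), both of the large subunit, came next. In mG-cKD it was Rpl22, at 50.9, 42.0 and 35.7 against 33.0, 31.0 and 24.3 FPKM (0.52 ± 0.16, unadjusted p = 0.0052, adjusted p = 1), with no overlap, then Rps27a (0.98). Rpl22 also had the smallest p for the difference of the effects (-0.42, unadjusted p = 0.083, adjusted p = 1). The same untreated mG-cKD libraries enter that difference, the RTI comparison in mG-cKD and mG-cKD against Ctrl. The results for Rpl22 in them are therefore not separate observations. Over the 9 members named throughout the RTI differences ran from -0.12 (Rps6) to 1.03 (Rps27a) in mG-cKO and from 0.02 (Rpl7l1) to 0.98 (Rps27a) in mG-cKD, and the differences of the effects from -0.19 (Rps27l) to 0.07 (Rpl22l1).

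Over the 5 ages, which use separate Ctrl libraries at each age, 62 of 79 members had a higher mean in mG-cKO at all 5, 10 at 4 and 7 at 3 or fewer. Of the 15534 genes tested in both tables, 11.1% were higher at all 5. The members moved together between libraries, so they are not 79 separate observations.

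**Figure D5:**
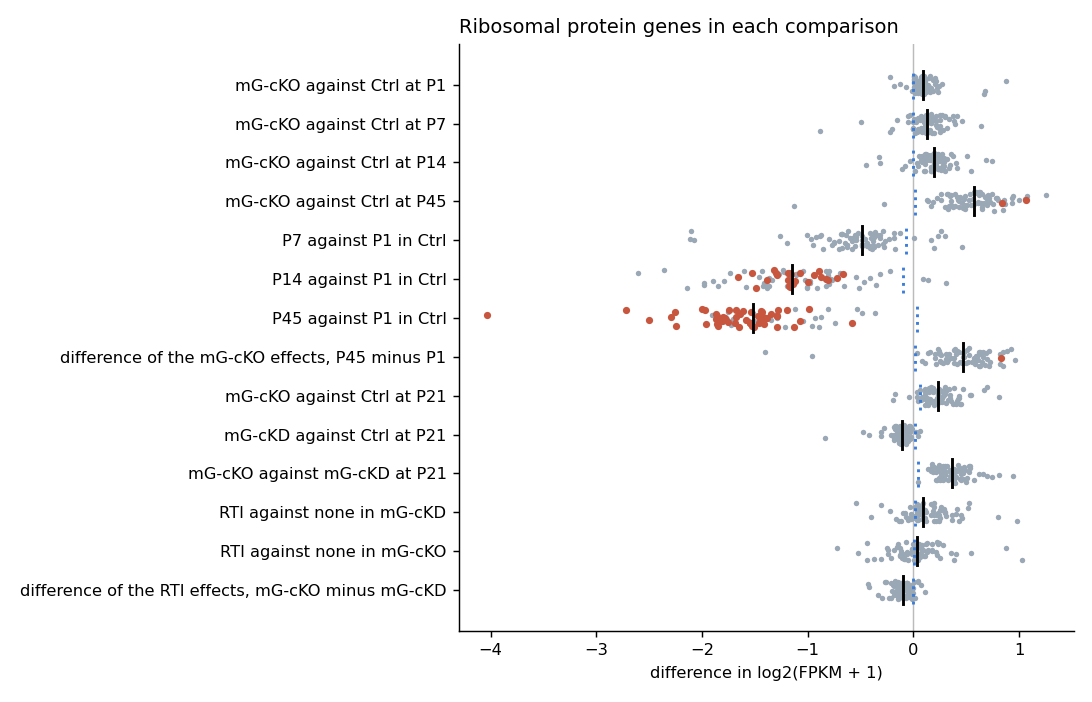
Each grey point is a member's log2 difference in 1 of 14 comparisons, red where it passed the limma threshold; the black bar is the median of the members and the blue dotted mark the median of all genes tested. Member medians fall to -1.52 for P45 against P1 in Ctrl and rise to 0.57 for mG-cKO against Ctrl at P45.

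Other genes of the translation pathway were tested beside these differences. Among 5 ribosomal proteins outside the rule, 15 other genes with TOP messages, 25 ribosome biogenesis genes and 78 mitochondrial ribosomal proteins, limma called none between mG-cKO and Ctrl at any of the 5 ages; at P45 the medians were 0.43, 0.21 and 0.04 for the first 3 lists. Of 10 genes that control mTOR and TOP translation, 1 passed, Eif4ebp1, which encodes a repressor of cap-dependent initiation that mTOR inactivates. It rose at P7 (4.51 against 1.17 FPKM, 1.35, adjusted p = 0.0128), P14 (1.196, adjusted p = 0.0201), P21 (3.89 against 1.59, 0.92 ± 0.16, adjusted p = 0.0058) and P45 (4.43 against 1.37, 1.18 ± 0.17, adjusted p = 0.0015). Of 8 genes of the integrated stress response, 2 rose at P7, 2 at P14, 6 at P21 and 3 at P45. Of all 19733 genes, 31, 53 and 137 were called higher at P7, P14 and P45, and 222 of 16420 at P21. Those at P45 included Sesn2 (1.09, limma adjusted p = 1.1e-04) and Trib3 (1.18, limma adjusted p = 2.4e-04), whose products restrain mTORC1 and AKT signalling.

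Oligodendrocyte markers were tested between the same groups. Of 7 on the list, 3 fell in mG-cKO at P14, 6 at P45 and 7 at P21, and none was at 0 in a group. Limma called lower 15 of all 19733 genes at P14, 91 at P45 and 138 of 16420 at P21. Their summed level was 644 to 721 FPKM in Ctrl and 158 to 179 in mG-cKO at P14, 2689 to 4185 and 268 to 445 at P21, and 530 to 1949 and 110 to 432 at P45. At P1 it was 24.6 to 30.4 and 27.7 to 33.7. The part of these cells in the members' differences was not tested.

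Across libraries most members followed one profile. Over the 20 age-series libraries the median Pearson r of a member's log2 values with the median of the members was 0.94, and 48 of 79 members were over 0.9; over the 16 libraries with whole read steps the values were 0.97 and 64, and over the 15 P21 libraries 0.80 and 17. Other protein-coding genes had median r of 0.36, 0.24 and 0.05, and 759 of 13768, 1715 of 13614 and 8 of 13475 of them were over 0.9. In the age series the profile was thus also that of many genes outside the members. The points share library, depth and the age groups, so these are descriptions. The least alike over the 20 libraries were Rps29 (0.02), Rplp1 (0.36) and Rpl36 (0.39); over the 16 they were Rps10 (-0.45), Rpl29 (0.50) and Rpl22l1 (0.78), and at P21 Rpl29 (-0.01), Rps26 (0.14) and Rpl38 (0.16). The genes outside the members with the highest r over 20 libraries were Cdk5rap3, Eif2s2, Eif3h, Tmem43 and Dtymk, each at 0.98. Eif2s2 and Eif3h encode subunits of translation initiation factors.

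Members share sequence with pseudogenes, which bears on how far single genes can be read. The median member shared 22.5% of its 100-base transcript windows with another annotated gene; 16 shared at least 50%, 8 shared none and Rpl21 shared with 40 genes. Rps16 shared 33.9% and Rpl37a 21.4% of their windows, each with 2 genes, Rplp0 14.6% and Rpl23a 80.0%. How the authors' counting placed such reads is not given in the sources used here, so the values of the members that share most are uncertain.

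Rps4l matched the symbol pattern but was typed as a transcribed processed pseudogene, on chromosome 6 at 148354656 to 148355598 on the plus strand (GRCm38), and it passed between mG-cKO and Ctrl at more ages than any member did. It was at 25.5, 27.1 and 26.3 FPKM in P1 Ctrl and 61.3, 64.8 and 75.6 in P1 mG-cKO (1.32 ± 0.21, adjusted p = 0.0239). At P7 it was at 37.7 and 26.7 against 67.9 and 70.4 (1.10 ± 0.26, adjusted p = 0.272), and at P14 at 20.7 and 20.97 against 52.99 and 62.7 (1.42 ± 0.26, adjusted p = 0.0261). The groups were apart at each age. At P45 it was at 12.02, 10.504 and 14.1 against 30.1, 30.9 and 57.8 (1.56 ± 0.21, adjusted p = 9.3e-04), and at P21 at 14.7, 12.7 and 19.5 against 48.9, 55.8 and 75.5 (1.87 ± 0.18, adjusted p = 3.9e-05). The P1 and P14 calls were lost on leaving out any 1 library of the groups compared (adjusted p of 0.0821 to 0.154 and of 0.149 to 0.421), and the P45 call on fitting the 2 groups alone (0.592). In mG-cKD it was at 17.8, 13.8 and 19.6 FPKM, overlapping Ctrl (0.13 ± 0.18, adjusted p = 1), and mG-cKO exceeded mG-cKD (1.75 ± 0.18, adjusted p = 8.3e-05). With RTI mG-cKO libraries were at 42.5, 50.8 and 42.8 FPKM (-0.38 ± 0.18, adjusted p = 0.962).

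Rps4l is shown beside its parent because reads of the pair can be told apart by sequence. Over 789 aligned bases of the coding region, GENCODE M21 transcripts of Rps4x and Rps4l had 628 identical bases (79.6%), and the longest identical run was 35 bases. The Rps4l copy kept an ATG at the start and its first stop at codon 263 of 263, and 1.66% of its 100-base windows occurred in another gene. In the 90-base stretch with the most differences, capitals mark the 26 bases that differ. Rps4x lies on chrX:102186413-102186502, minus strand, and Rps4l on chr6:148355135-148355224, plus strand (GRCm38).
Rps4x: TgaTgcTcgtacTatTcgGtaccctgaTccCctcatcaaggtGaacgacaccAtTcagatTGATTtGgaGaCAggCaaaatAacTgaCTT
Rps4l: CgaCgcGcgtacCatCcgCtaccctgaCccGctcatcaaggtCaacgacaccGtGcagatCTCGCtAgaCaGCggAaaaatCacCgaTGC

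Of the other pseudogenes of these genes 91 were tested in the age table. In Ctrl 12 fell at P14 (background 14.3%), a share no higher than that of all genes, and 24 fell and 1 rose at P45 against P1 (background 19.4% and 17.2%). At P45, 1 differed between genotypes, where limma called 137 of all 19733 genes higher and 91 lower. The pseudogene was Rpsa-ps9, at 2.33 FPKM in mG-cKO and 0.108 in Ctrl (1.58, limma adjusted p = 6.0e-05). It also rose at P21 (0.997, limma adjusted p = 0.0151).

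Under VPA only 8 members were listed and 5 passed the filter on low values. None passed limma's threshold (background 0%) and none had an unadjusted p under 0.05. The paralog Rpl22l1 was at 15.5, 14.8 and 12.01 FPKM in CT and 12.03, 11.9 and 10.1 in VPA, which overlap (-0.29 ± 0.18, adjusted p = 0.356). Rps27l was at 21.4, 22.5 and 21.6 against 21.1, 20.2 and 19.9, which do not overlap (-0.09 ± 0.17, adjusted p = 0.745; 1 member lower without overlap, background 14.5%). The other 3 were again Rps10, Rpl24 and Rpl13a. Rps10 was at 1.79, 1.94 and 1.84 FPKM in CT and 2.67, 1.40 and 360.0 in VPA, so that its difference (2.36 ± 1.84, adjusted p = 0.446) rests on the third VPA library, which alone had no whole read steps. Over libraries 1 and 2 alone 1 of the 5 members passed, Rpl22l1, lower in VPA (-0.32 ± 0.07, limma adjusted p = 0.0327; background 16.2% lower), and the median was -0.08 in place of 2.07.

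In the 3 NPC libraries the members held 8.65%, 15.2% and 15.6% of all FPKM, more than in any cortex library, though tables were normalized separately and hold different genes, so the levels are only set side by side. Rplp0 was at 942, 2001 and 1203 FPKM, Rplp1 at 1427, 3967 and 1770 and Rplp2 at 138, 385 and 1099, in the order C1, C2 and C3. Rps16 was at 351, 864 and 1210 and Rpl37a at 190, 418 and 651. The paralog Rps27l, at 144, 367 and 322, was also listed above its cortex values, while Rpl22l1, at 26.7, 48.7 and 178, was above them in C3 alone and Rps4l was at 8.86, 15.6 and 5.59. The 3 libraries differed several-fold among themselves, and C3 lacked whole read steps.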

How the data were processed

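The deposited tables hold FPKM values made by the authors. The submitters' processing notes name mm10, featureCounts 2.0.4, STAR 2.5.3a and Trim Galore 0.6.5, and per the labels RNA was isolated with TRIzol for a NEB Next Ultra RNA kit. All per-sample columns were used, for 44 of 48 labelled samples; NPC columns were matched to their group only. Values under 10 reads fell on whole read steps (tolerance 0.05 reads) for 97.9% to 99.3% of cases in 23 libraries and 14.4% to 30.7% in 21.

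Members, lists and tests were chosen with earlier results of these data known. Each table was fitted alone with limma 3.58.1 (R 4.3.3, statmod 1.5.0; trend and robust variances, 1 mean per group) on log2(FPKM + 1), which understates changes of low genes, with genes averaging 0.5 FPKM or more (19733, 16420 and 11264 in the age, P21 and CT and VPA tables) and Benjamini-Hochberg adjusted p under 0.05, in 15 comparisons. The share of FPKM has no test. The fits were tested on simulated data. Gene models are GENCODE M21; matplotlib 3.10.9, pandas 2.3.3, numpy 2.4.6 and Python 3.11.15 were used.

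Named are 9 fixed members (Rplp0, Rplp1, Rplp2, Rps6, Rpl3, Rps27a and the paralogs past the filter), in each direction the 5 called members lowest in adjusted p or where none is called the 3 lowest in p, and 2 leading called genes of other lists. Rpl37, Rps15a, Rpl21, Rpl30, Rps10, Rpl24 and Rpl13a were named in some places after their values were seen. Some members that this rule names are not reported here.

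Libraries of the same number deviated together in mG-cKO against Ctrl at P1 (correlations 0.782, 0.710 and 0.942), P45 (0.871, 0.887 and 0.969) and P21 (0.157, 0.125 and 0.698), in mG-cKO against mG-cKD (0.522, 0.331 and 0.693) and in P45 against P1 Ctrl (0.584, 0.556 and 0.665). The labels state no pairing, and the libraries without whole read steps at P1 and P45 all carry number 3. Alternatives were another pseudocount, no filter, scaling, a replicate block, the compared groups alone, each library left out, and libraries 1 and 2 alone.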

Additional observations from a re-analysis of the deposited data

Results flagged for a closer look

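1 result was marked because the effect of genotype differed between ages in a test of that difference. For Rps16, a small-subunit gene, the mG-cKO effect was 0.83 larger at P45 than at P1 on the log2 scale (SE 0.16, limma adjusted p = 0.0483). It was 0.01 at P1, where mG-cKO libraries lay on both sides of Ctrl, and 0.84 at P45, where all 3 mG-cKO libraries were above all 3 Ctrl libraries. The adjusted p was 0.0026 with the replicate block, 0.0754 with a pseudocount of 0.1 and 0.431 with libraries scaled by the median of ratios.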

How the results depend on the processing

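Of 183 recomputed counts of members past the threshold, 147 stayed within 1.5 times and 36 moved; of 187 medians 184 moved by less than the spread and 3 by more. With the replicate block 2 members passed at P7 (mG-cKO against Ctrl; 0.851% of all genes higher in the same fit), 6 at P14 (1.69%), 68 at P45 (67 higher, 8.37%, and 1 lower, 5.51%), 5 for P7 against P1 (12.8% lower), 57 for P14 against P1 (26.5% lower), 39 for the difference between P45 and P1 (2.76% higher), and 1 for mG-cKO against mG-cKD (1.1% higher); it changed no other count by over 1.5 times. With the compared groups alone 21 passed at P14 (2.24% higher), 0 at P45 (0%), 29 for P45 against P1 (8.42% lower) and 0 for the difference. Over libraries 1 and 2 alone 61 passed at P45 (6.42% higher), 50 for P7 against P1 (48 lower, 22.5%, and 2 higher, 16.5%), 71 for P14 against P1 (33.4% lower), 31 for the difference (2.06% higher) and 1 for VPA (16.2% lower). Scaled libraries gave 5 at P45 (0.659% higher), 1 for P7 against P1 (2.63% lower) and 0 for the difference, and a pseudocount of 0.1 gave 0 for the difference. Leaving out 1 library gave 9 to 21 members for P14 against P1 (10 without P14 Ctrl 1, 9 without P14 Ctrl 2, 15 without P1 Ctrl 3; 7.92%, 7.84% and 11.5% of all genes lower), 38 to 71 for P45 against P1, 0 to 1 for P7 against P1, 2 to 3 at P45, 0 to 1 for the difference, 0 to 1 for mG-cKO against Ctrl at P21, and 0 to 0 for each other comparison; where a group is left with 1 library, that library is taken to vary like the other groups. The 1 reversed single value was Rplp1, P14 against P1, at -0.15 over libraries 1 and 2 alone. Without the low-value filter 17 members passed for P14 against P1 (16 lower, 6.27%, and 1 higher, 5.31%). The causes were not tested. Depth is unknown for 21 libraries, so counting error cannot be given there; the third libraries at P1 and P45 and all of P21 are of that kind, and members that share sequence with pseudogenes depend on how reads were placed.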
